A study of Mus musculus with 11 samples.

Results

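The 82 genes described here are the nuclear genes of oxidative phosphorylation that were measured in MYCN-driven neuroblastomas of the mouse. They were taken by name (Nduf, Sdh, Uqcr, Cox4 to Cox8 and Atp5 rows, 84 of the 24411 rows of the deposited table), and 82 of the 84 reached 1 TPM (a length-corrected share of a fixed total of 1000000 transcripts) in at least 2 of 11 libraries. Cox7b2 and Cox8c, isoform genes known from testis, did not, with Cox7b2 at 0 to 0.89 TPM and Cox8c listed at 0 in all 11 libraries. By name, 37 of the 82 belong to complex I, 4 to complex II, 8 to complex III, 16 to complex IV and 17 to complex V. The name rule used no measured difference between groups, although the set was chosen with earlier results of these data known. The mice were homozygous Th-MYCN+/+ animals, in which the tyrosine hydroxylase promoter drives a MYCN transgene and tumours arise spontaneously, and all groups carried this genotype. At a tumour size of about 5 mm each mouse received a single treatment, namely intraperitoneal vehicle (n = 3), an intravenous dose of 40 mg/kg CBL0137 (n = 3), an intraperitoneal dose of 5 mg/kg panobinostat (replicates 1 and 3, so n = 2) or the combination of these doses (n = 3). Whole tumours were frozen 16 h later and gave 1 ribosome-depleted, stranded total RNA library each. Panobinostat replicate 2 is not analysed here. CBL0137, a curaxin, intercalates into DNA and ties up FACT, a chaperone of histones, while panobinostat inhibits histone deacetylases.

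Oxidative phosphorylation couples electron transport in the inner mitochondrial membrane to ATP synthesis. Complexes I and II pass electrons from NADH and succinate to ubiquinone, complex III passes them on to cytochrome c, and complex IV reduces oxygen with them. Complexes I, III and IV pump protons, and complex V, the ATP synthase, lets them flow back through a ring of c subunits to make ATP. Most subunits are encoded in the nucleus, a few in mitochondrial DNA, and complex IV has alternative nuclear isoforms for heart, skeletal muscle, brown fat, lung and testis.

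The name rule takes a few genes that are not plain subunits of the complex they are counted under. Ndufa4 is now known as a complex IV subunit, Ndufa4l2 is its hypoxia-induced paralogue, Cox7a2l joins complexes III and IV into supercomplexes, and Atp5s and Atp5sl are not ATP synthase subunits. All 10 sympathoadrenal markers (Th among them) reached 1 TPM in 10 libraries and 9 did in combination replicate 2, summing to 718 to 2031 TPM. Several libraries also held markers of other tissues. Skeletal muscle markers summed to 13963 TPM in panobinostat replicate 3, 1075 TPM in combination replicate 1 and 875 TPM in CBL0137 replicate 2, against 11.3 to 94.7 TPM in the other 8 libraries. Adrenal cortex markers summed to 7192 TPM in combination replicate 2 and to at most 30.7 TPM elsewhere. Kidney markers summed to 487 TPM in vehicle replicate 2, where all 10 reached 1 TPM, against 2.73 to 149.6 TPM elsewhere. Without this control 18 of the 82 genes were called after both drugs (13 higher and 5 lower), 8 after panobinostat and 0 after CBL0137. The shares of all tested genes called in that fit are not given here. In bulk tumours, fewer cells of a type and less RNA per cell cannot be told apart. Depth is unknown, since TPM keep no counts, and between 12856 and 14747 genes reached 1 TPM per library.

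Respiratory chain transcripts were abundant in all tumours. The 82 genes took 2.09 to 3.28% of all TPM, lowest in combination replicate 3 and highest in panobinostat replicate 3. In vehicle tumours 70 of them averaged at least 100 TPM, 7 lay between 10 and 100 TPM and 5 were under 10 TPM. Atp5b, the catalytic beta subunit of the ATP synthase, was highest at 1376 ± 117 TPM (SD, n = 3), followed by the small complex IV subunit Cox7c at 930 ± 69.4 TPM and the alpha subunit Atp5a1 at 831 ± 64.8 TPM. The highest of complex III was Uqcrh, the hinge protein beside cytochrome c1, at 492, 551 and 498 TPM in the 3 vehicle tumours. Among the lowest was Ndufs5, a complex I subunit that ran from 4.62 to 13.6 TPM over the 11 libraries. Ndufs5 is measured on 1 RefSeq transcript in the deposited table, and its level is uncertain where near-identical copies share its reads.

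Levels varied little between the 11 tumours for most of these genes and widely for a few isoform genes. The supercomplex factor Cox7a2l was the steadiest, with 169 to 218 TPM, a 1.29-fold range. The widest ranges were those of Cox6a2, Cox7a1 and Cox8b, the muscle-type isoforms of complex IV, followed by Ndufa4l2, Cox4i2 and Cox6b2. Cox6a2 went from 0.23 to 297 TPM, Cox7a1 from 6.81 to 503 TPM and Cox8b from 19.8 to 699 TPM, each highest in panobinostat replicate 3. That library held the highest value of 48 of the 82 genes, and combination replicate 2 held the highest value of 22.

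After both drugs the median change differed between the complexes. Against vehicle, 13 of the 82 genes rose and 12 fell (limma on log2(TPM + 1), adjusted p under 0.05 over all 15497 tested genes), which is 30.5% of them, against 66% of all tested genes (35.9% higher and 30.1% lower). Complex IV had 8 genes that rose and 1 that fell of 16. The 8 included the tissue-restricted isoforms Cox8b, Cox7a1, Cox4i2 and Cox6b2. Among complex IV genes outside such isoforms, the share that rose was near that of all tested genes. Complex V had 0 that rose and 6 that fell of 17, or 35.3% lower, near the 30.1% of all tested genes. Complex I had 3 that rose and 5 that fell of 37. Of complex II 2 of 4 rose, and of complex III 0 of 8 passed the test. The median log2 change was 0.43 in complex IV, 0.26 in complex II, 0.25 in complex III, 0.03 in complex I and -0.15 in complex V, beside 0.06 over the 82 genes and 0.08 over all tested genes. The medians of complexes II, III and IV stayed above 0 and that of complex V below 0 under median-of-ratios scaling, quantile normalization and a rescaling that left out histone genes and small structural RNAs, while the complex I median turned to -0.05, -0.15 and -0.11. Of the 57 genes that did not pass the test, 55 had a 95% interval of the change within 2-fold either way. Without vehicle replicate 3, 14 genes passed the test, 8 higher and 6 lower, and the share of all tested genes in that fit is not given here.

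Other scalings changed how many genes fell. Quantile normalization moved the median change of all tested genes from 0.08 to -0.26 on the log2 scale, and the split of all calls from 5568 higher and 4666 lower to 4162 higher and 6678 lower. The split of the 82 genes went from 13 higher and 12 lower to 13 and 18 under quantile normalization and to 9 and 20 under the rescaling. For the rescaling the split of all tested genes is not given here, so its counts are not read as particular to the 82 genes.

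**Figure D1:**
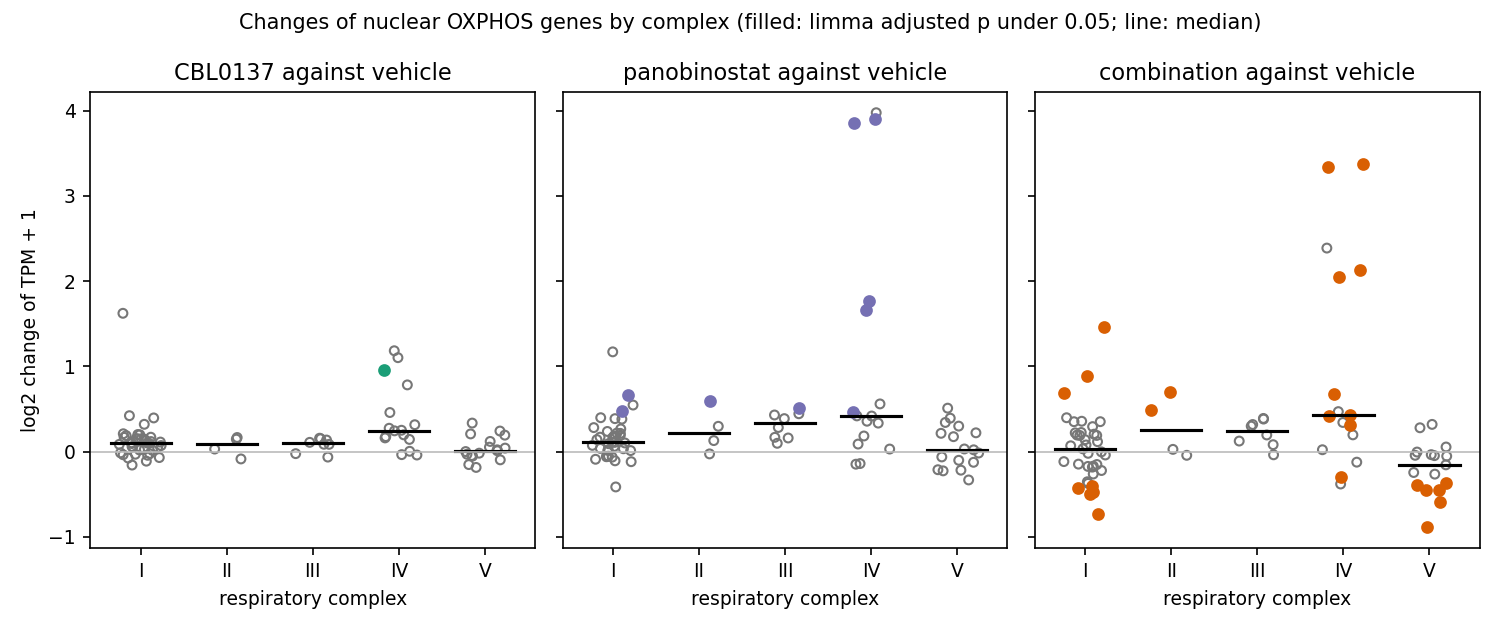
Log2 change of TPM + 1 against vehicle (vertical axis) for each of the 82 genes by respiratory complex, in 1 panel per treatment, with filled points for genes at a limma adjusted p under 0.05 and a line at the median. After both drugs the filled points of complex V all lie below 0 and 8 of the 9 of complex IV lie above it.

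After the combination 6 of the 17 complex V genes fell, or 35.3%, close to the 30.1% of all tested genes that fell, and 11 did not pass the test. The 6 encode parts of the catalytic head, the central stalk and the proton-driven ring. Atp5g1, 1 of 3 genes for the c subunit of the proton-driven ring, was at 349, 442 and 401 TPM in vehicle, 396, 402 and 353 TPM after CBL0137, 247 and 550 TPM after panobinostat, and 212, 206 and 222 TPM after both. All 3 combination tumours were below all 8 other tumours. Atp5g1 fell by 0.88 ± 0.23 on the log2 scale (SE, limma adjusted p = 0.00703). Atp5g2, which encodes the same mature c subunit, was at 562, 569 and 556 TPM in vehicle, whereas the combination tumours had 374, 396 and 347 TPM. Its groups did not overlap, and it fell by 0.59 ± 0.11 (limma adjusted p = 0.000699).

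The third c subunit gene did not follow them. Atp5g3 was at 387, 446 and 389 TPM in vehicle, 432, 421 and 387 TPM after CBL0137, 354 and 635 TPM after panobinostat and 390, 405 and 389 TPM after both. Vehicle and combination tumours overlapped, and the log2 change was -0.04 with a 95% interval from -0.43 to 0.35 (limma adjusted p = 0.844). The summed level of the 3 genes was 1367 ± 82.1 TPM in vehicle, 1355 ± 112 TPM after CBL0137 (SD, n = 3 each) and 981 ± 24.6 TPM after both (n = 3). The panobinostat tumours stood on either side, at 1048 and 1709 TPM. Of this sum the share of Atp5g3 was 29.8 ± 0.852% in vehicle and 40.2 ± 0.331% after both drugs, and that of Atp5g1 was 29.0 ± 1.86% and 21.8 ± 1.36%. Since the 3 genes encode the same mature protein, the division of reads between them by the authors' estimation could affect these shares.

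**Figure D2:**
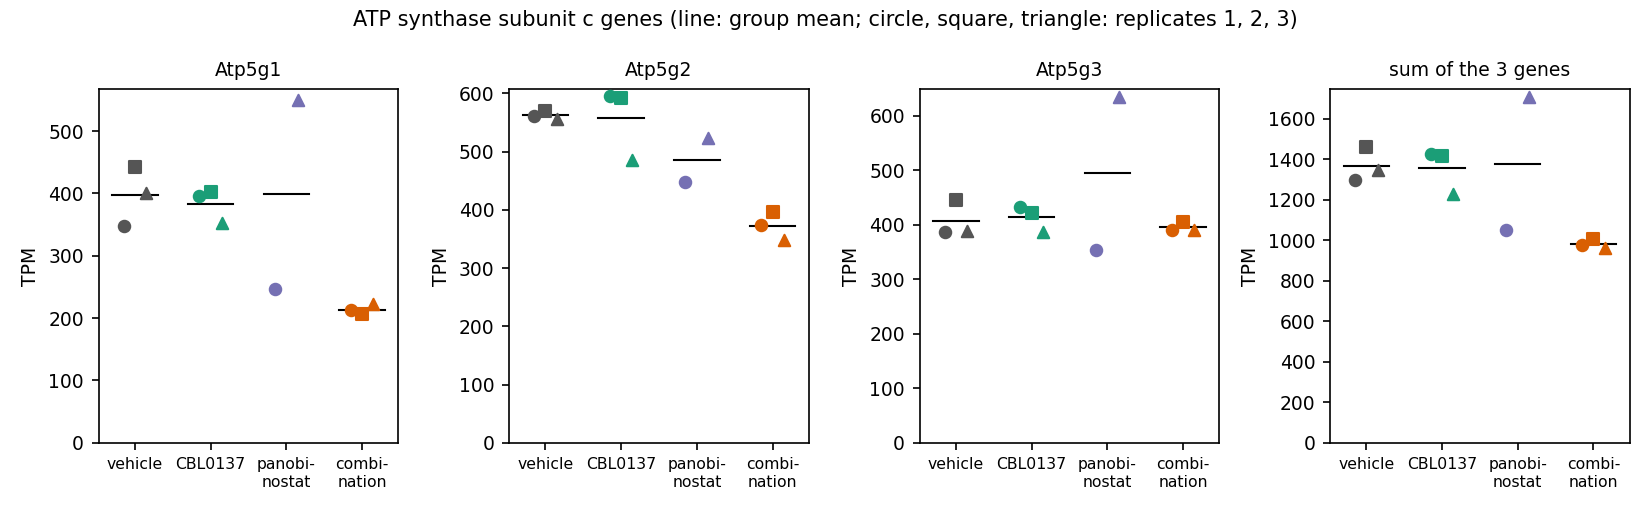
TPM (vertical axis, from 0) of the 3 genes for ATP synthase subunit c and of their sum in each tumour, by treatment, with circle, square and triangle for replicates 1, 2 and 3 and a line at the group mean. Atp5g1 and Atp5g2 are lowest in the 3 combination tumours, and Atp5g3 in these tumours lies at 389 to 405 TPM, among the vehicle values.

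The promoter windows of the 3 c subunit genes are shown because genes for 1 protein moved apart. Each window runs from 250 bases before to 50 bases after an annotated start (RefSeq, GRCm38.p6), and capitals mark a match, on either strand, to the NRF1 motif (GCGCA, any base, GCGC) or the E-box CACGTG, which MYC proteins can bind.
Atp5g1 (chr11:96075582-96075881, minus strand): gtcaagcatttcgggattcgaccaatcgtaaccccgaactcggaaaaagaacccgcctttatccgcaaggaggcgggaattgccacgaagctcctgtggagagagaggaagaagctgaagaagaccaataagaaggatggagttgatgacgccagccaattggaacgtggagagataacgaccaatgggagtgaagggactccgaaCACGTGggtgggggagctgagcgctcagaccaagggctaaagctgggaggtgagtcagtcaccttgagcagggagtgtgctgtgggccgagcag
Atp5g2 (chr15:102670998-102671297, minus strand): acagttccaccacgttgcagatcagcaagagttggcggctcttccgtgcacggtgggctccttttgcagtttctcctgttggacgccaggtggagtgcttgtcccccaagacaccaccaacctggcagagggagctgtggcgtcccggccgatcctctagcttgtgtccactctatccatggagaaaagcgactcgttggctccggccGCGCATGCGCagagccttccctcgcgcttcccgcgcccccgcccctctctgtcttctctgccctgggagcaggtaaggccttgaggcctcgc
Atp5g3 (chr2:73911277-73911576, minus strand): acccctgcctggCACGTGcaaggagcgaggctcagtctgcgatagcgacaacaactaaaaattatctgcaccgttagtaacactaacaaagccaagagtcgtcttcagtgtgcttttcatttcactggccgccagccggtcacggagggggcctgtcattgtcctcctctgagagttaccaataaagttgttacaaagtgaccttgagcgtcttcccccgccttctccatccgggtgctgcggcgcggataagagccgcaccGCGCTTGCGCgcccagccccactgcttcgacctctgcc

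The Atp5g1 window held 1 E-box, that of Atp5g2 1 NRF1 match, and that of Atp5g3 1 of each. Of the 68 genes with a window in the RefSeq table, 25% held the NRF1 motif, against 5.19% of 27025 genes. The YY1 motif AANATGGCG was in 16.2% against 2.76%, the ETS motif CCGGAAG in 23.5% against 9.93%, and the E-box in 10.3% against 8.09% (both strands searched, with each motif counted on its own). By complex, the E-box was in 5 of 16 complex V windows and in 0 of 12 complex IV windows. Of the genes that fell after the combination, 1 of 11 held an E-box and 3 of 11 an NRF1 match, of those that rose 0 of 9 and 2 of 9, and of those not called 6 of 48 and 12 of 48. These matches are descriptions of the letters only.

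Other ATP synthase subunits fell by less. Atp5a1, the alpha subunit, was at 772, 900 and 821 TPM in vehicle against 572, 700 and 554 TPM after both drugs, without overlap, and fell by 0.45 ± 0.13 (limma adjusted p = 0.0129). Atp5c1, the gamma subunit that turns inside the head, fell by 0.44 (adjusted p = 0.0334) and the beta subunit Atp5b by 0.39 (adjusted p = 0.0346). Quantile normalization took Atp5b to -0.01, with an adjusted p of 0.959. Atp5e, the epsilon subunit of the central stalk, fell by 0.36 (adjusted p = 0.0474), with overlapping groups. The 11 other complex V genes did not pass the test, among them the delta subunit Atp5d at -0.03 (95% interval from -0.29 to 0.22).

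In complex I the genes that fell sit in both arms of the enzyme. Ndufc2, an accessory subunit of the membrane arm, was at 295, 381 and 356 TPM in vehicle, 361, 347 and 293 TPM after CBL0137, 221 and 299 TPM after panobinostat, and 197, 233 and 188 TPM after both. The combination tumours were all below the vehicle tumours, and Ndufc2 fell by 0.73 ± 0.15 (limma adjusted p = 0.00154). Ndufv3, a small subunit of the NADH-oxidising tip, was at 447, 457 and 457 TPM in vehicle, 472, 508 and 413 TPM after CBL0137, 440 and 491 TPM after panobinostat, and 311, 374 and 344 TPM after both. The combination tumours lay below all others, and Ndufv3 fell by 0.41 ± 0.10 (adjusted p = 0.00570). It was also the 1 gene of the 82 that differed between the combination and panobinostat. Ndufa5, Ndufv2 and Ndufb2 fell by 0.50, 0.47 and 0.43 (adjusted p = 0.0196, 0.0229 and 0.0488), of which Ndufv2 carries an iron-sulfur cluster near the NADH site.

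The rises in complex I were in accessory subunits. Ndufa3 was at 188, 206 and 185 TPM in vehicle, 263, 264 and 249 TPM after CBL0137, 237 and 396 TPM after panobinostat and 401, 418 and 274 TPM after both. Every treated tumour was above every vehicle tumour, and the combination rise was 0.89 ± 0.20 (limma adjusted p = 0.00255). Ndufa1 went from 136, 162 and 146 TPM in vehicle to 231, 284 and 204 TPM after both, a rise of 0.69 ± 0.15 without overlap (adjusted p = 0.00255). The core subunits Ndufs1, Ndufs3, Ndufs7, Ndufs8 and Ndufv1 did not pass the test in any of the 3 comparisons with vehicle.

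Ndufa4l2, a hypoxia-inducible gene named after its likeness to Ndufa4, was at 3.19, 5.17 and 1.69 TPM in vehicle, 14.6, 8.12 and 13.3 TPM after CBL0137, 7.79 and 8.75 TPM after panobinostat and 6.54, 21.7 and 7.56 TPM after both. All 8 treated tumours were above the 3 vehicle tumours. It rose after the combination by 1.47 ± 0.43 (limma adjusted p = 0.0123), while the changes after CBL0137 and panobinostat alone were 1.62 ± 0.43 (adjusted p = 0.0552) and 1.17 ± 0.48 (adjusted p = 0.0749). Its partner gene Ndufa4 was at 576 to 661 TPM in vehicle and 628 to 887 TPM after both drugs.

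Complex II, which is also the succinate dehydrogenase of the citric acid cycle, rose in its flavoprotein and in a membrane anchor. Sdhc, a heme-binding membrane anchor, was at 71.0, 82.7 and 74.8 TPM in vehicle, 79.2, 90.8 and 86.7 TPM after CBL0137, 98.1 and 136 TPM after panobinostat and 122, 155 and 102 TPM after both. The 5 tumours given panobinostat, alone or combined, were above the 6 others. Sdhc rose by 0.71 ± 0.16 after both drugs (limma adjusted p = 0.00316) and by 0.59 ± 0.18 after panobinostat (adjusted p = 0.0242). The flavoprotein Sdha rose by 0.49 after both (adjusted p = 0.0258), with overlapping groups. The iron-sulfur subunit Sdhb and the second anchor Sdhd were at 0.03 (95% interval from -0.40 to 0.46) and -0.04 (from -0.32 to 0.23).

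No complex III gene passed the test after both drugs. Its 8 log2 changes ran from -0.04 for the Rieske iron-sulfur protein Uqcrfs1 to 0.39 for the small subunit Uqcrq, with adjusted p of 0.876 and 0.0536. The hinge protein Uqcrh was at 600 and 893 TPM after panobinostat and 689, 785 and 553 TPM after both, above the 3 vehicle tumours. It rose after panobinostat by 0.51 ± 0.18 (limma adjusted p = 0.0437), and its change after both was 0.38 ± 0.16 (adjusted p = 0.0594). The core proteins Uqcrc1 and Uqcrc2 were at 0.08 and 0.12 after both drugs, with adjusted p of 0.689 and 0.570.

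Of the 11 complex IV genes outside the tissue-restricted isoforms, 4 rose, 1 fell and 6 did not pass the test after both drugs, beside 35.9% of all tested genes higher and 30.1% lower. Cox6a1 was at 365, 433 and 339 TPM in vehicle, 436, 512 and 463 TPM after CBL0137, 560 and 481 TPM after panobinostat and 565, 675 and 571 TPM after both. Combination and vehicle tumours did not overlap, and the rise was 0.67 ± 0.12 (limma adjusted p = 0.000809). Cox6b1, Cox4i1 and Cox8a rose by 0.43, 0.42 and 0.32 (adjusted p = 0.0327, 0.0247 and 0.0490), of which Cox4i1 is the usual form of the regulatory subunit IV. The subunits Cox5a and Cox5b were at 0.20 and 0.02 (adjusted p = 0.355 and 0.902). Cox7a2, the widely expressed partner of Cox7a1, fell by 0.30 (adjusted p = 0.0454), with overlapping groups.

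The largest changes of all 82 genes were in tissue-restricted isoforms of complex IV. Cox8b, the form of subunit VIII known from heart, skeletal muscle and brown fat in the mouse, was at 29.1, 40.9 and 23.5 TPM in vehicle, 19.8, 150 and 114 TPM after CBL0137, 294 and 699 TPM after panobinostat and 378, 544 and 165 TPM after both. The 5 tumours given panobinostat, alone or combined, were above the 6 others. Cox8b rose by 3.37 ± 0.71 after both drugs, a 10.3-fold change (limma adjusted p = 0.00187), and by 3.86 ± 0.79 after panobinostat (adjusted p = 0.00407). Cox7a1 (chromosome 7, 30184171 to 30186030, RefSeq GRCm38.p6), the heart, muscle and brown fat form of subunit VIIa, was at 10.4, 16.1 and 9.92 TPM in vehicle, 6.81, 48.7 and 26.8 TPM after CBL0137, 71.6 and 503 TPM after panobinostat and 119, 258 and 69.3 TPM after both. The same 5 tumours were highest. It rose by 3.34 ± 0.81 after both (adjusted p = 0.00429) and by 3.90 ± 0.90 after panobinostat (adjusted p = 0.00703).

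These isoforms came to make up a large part of their subunit's transcripts. Cox8b was 4.67 ± 0.633% of Cox8a plus Cox8b in vehicle, 10.8 ± 7.31% after CBL0137 and 30.2 ± 9.98% after both (SD, n = 3 each), and 31.1 and 50.9% in the 2 panobinostat tumours. Cox7a1 was 6.18 ± 1.42% of Cox7a1 plus Cox7a2 in vehicle, 11.3 ± 7.92% after CBL0137 and 46.6 ± 13.3% after both, and 31.9 and 73.9% in the panobinostat tumours. Cox6a2, the heart and skeletal muscle form of subunit VIa, differed from both. It was at 0.97, 0.82 and 0.23 TPM in vehicle, 0.74, 7.42 and 1.98 TPM after CBL0137, 1.23 and 297 TPM after panobinostat and 24.4, 5.02 and 3.13 TPM after both. Its 3 highest libraries are the 3 with the highest skeletal muscle marker sums. Its changes of 3.97 after panobinostat and 2.39 after both did not pass the test (limma adjusted p = 0.0744 and 0.174), although without panobinostat replicate 3 the second did, at 2.39 (adjusted p = 0.0159).

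**Figure D3:**
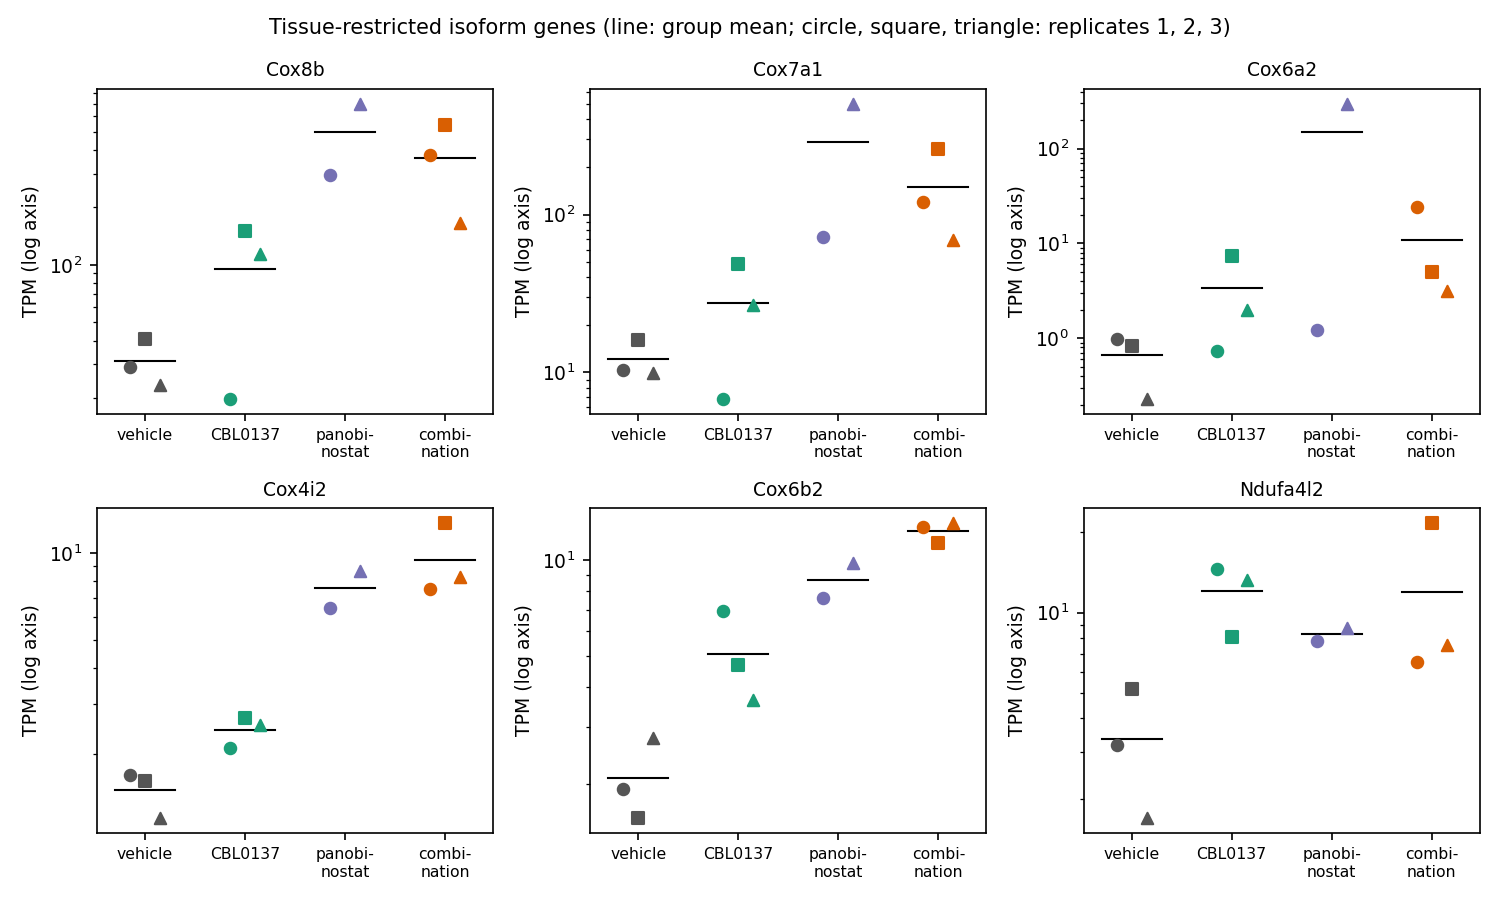
TPM on a log axis of 6 isoform genes in each tumour, by treatment, with circle, square and triangle for replicates 1, 2 and 3 and a line at the group mean. Cox8b and Cox7a1 are higher in the 5 tumours given panobinostat than in the 6 others, whereas Cox6a2 is led by panobinostat replicate 3 at 297 TPM.

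Markers of muscle and fat were high in some of the same libraries as these isoforms. Of 13 skeletal muscle markers 0 passed the test in any of the comparisons with vehicle, and their sums differed widely within groups. In panobinostat replicate 3 their sum was 13963 TPM. In panobinostat replicate 1 it was 19.5 TPM, within the vehicle range of 14.7 to 94.7 TPM. Cox8b was at 294 TPM and Cox7a1 at 71.6 TPM in this replicate 1 tumour. Without the 3 libraries with the highest muscle sums, a choice made after seeing the data, the changes after both drugs were 3.26 for Cox8b and 3.39 for Cox7a1 (limma adjusted p = 0.00889 and 0.00449), and those after panobinostat, left with 1 library assumed to vary like the others, were 3.24 and 2.50 (adjusted p = 0.0601 and 0.0807). Ucp1, the uncoupling protein that defines brown fat, was at 20.7 to 40.9 TPM in vehicle, 12.4 to 107 TPM after CBL0137, 125 and 200 TPM after panobinostat and 103 to 778 TPM after both. It rose after both by 2.89 ± 0.83 (adjusted p = 0.0107). Of the 5 brown fat markers 2 rose after panobinostat and 2 after both, beside 25.5% and 35.9% of all tested genes. Their sum was 102 to 154 TPM in vehicle, 208 and 338 TPM after panobinostat and 203 to 1016 TPM after both. Cidea, a large part of this sum, was at 77.7 to 111 TPM in vehicle. It was at 75.2 and 123 TPM after panobinostat and 92.5 to 204 TPM after both. Of the 5 white fat markers, Lep reached 1 TPM only in panobinostat replicate 1 and combination replicates 1 and 2. It entered the test through these tumours alone, so no count of calls is read from this list. The white fat sums were 205 to 539 TPM in vehicle, 1590 and 3269 TPM after panobinostat and 2165 to 8404 TPM after both. The parts of muscle and of fat in the isoform changes were not tested.

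**Figure D4:**
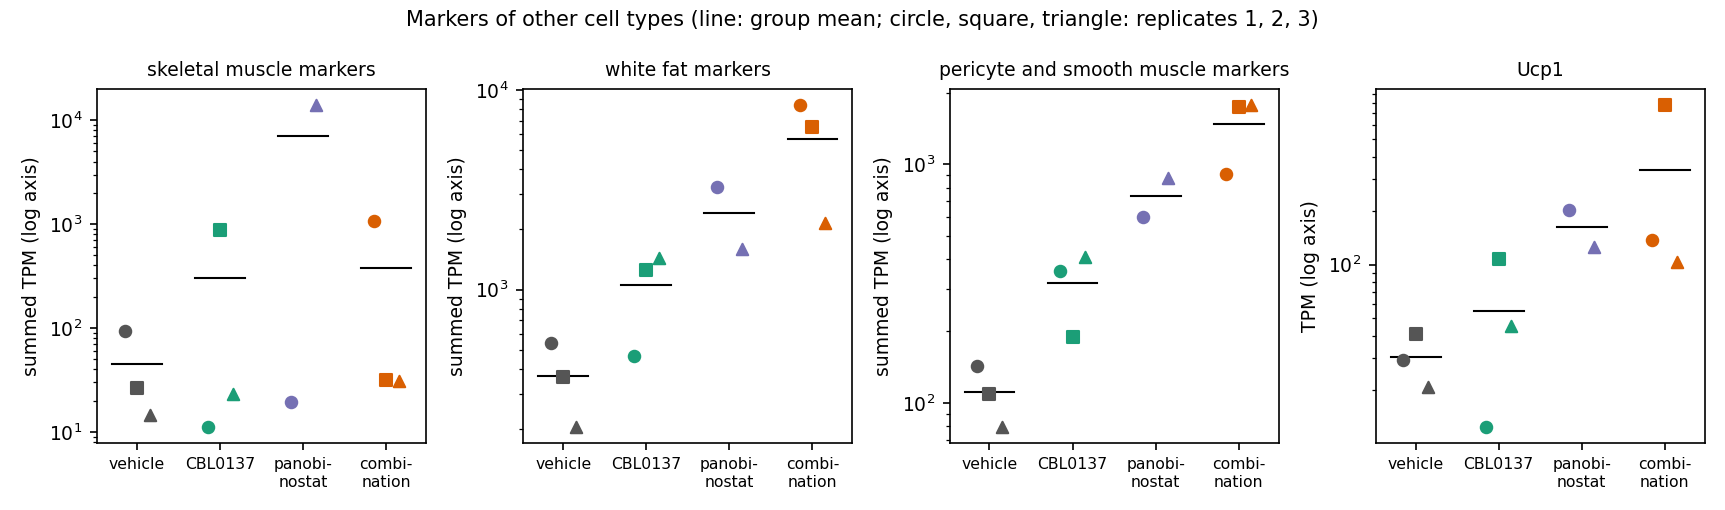
Summed TPM on a log axis of skeletal muscle, white fat, and pericyte and smooth muscle markers, and TPM of Ucp1, in each tumour by treatment, with replicates as circle, square and triangle and a line at the group mean. Skeletal muscle is high in 3 libraries, while the other panels are higher in all 5 tumours given panobinostat than in the vehicle tumours.

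The promoter windows of the subunit VIII pair are shown because the pair differs in tissue range and in these tumours. Capitals mark matches to the ETS motif CCGGAAG (reverse complement CTTCCGG), and the Cox8b window held none of the 4 motifs searched.
Cox8a (chr19:7217567-7217866, minus strand): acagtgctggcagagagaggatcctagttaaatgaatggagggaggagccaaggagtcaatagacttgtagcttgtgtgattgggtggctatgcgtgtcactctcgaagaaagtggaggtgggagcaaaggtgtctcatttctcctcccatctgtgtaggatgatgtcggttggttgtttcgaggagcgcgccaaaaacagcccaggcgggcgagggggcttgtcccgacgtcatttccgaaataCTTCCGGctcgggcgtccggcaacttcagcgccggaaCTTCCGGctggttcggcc
Cox8b (chr7:140900397-140900696, minus strand): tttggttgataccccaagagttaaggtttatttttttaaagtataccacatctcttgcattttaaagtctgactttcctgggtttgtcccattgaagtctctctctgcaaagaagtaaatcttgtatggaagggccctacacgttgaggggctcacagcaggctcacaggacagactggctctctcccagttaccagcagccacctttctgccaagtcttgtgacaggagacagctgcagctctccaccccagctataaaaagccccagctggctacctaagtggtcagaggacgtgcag

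Cox4i2 and Cox6b2, both low in vehicle tumours, rose in closer groups. Cox4i2, the form of subunit IV known from lung and from pericytes, was at 1.70, 1.61 and 1.20 TPM in vehicle, 2.11, 2.68 and 2.52 TPM after CBL0137, 6.47 and 8.68 TPM after panobinostat and 7.52, 12.7 and 8.27 TPM after both. Each panobinostat and combination tumour was above each CBL0137 tumour, and these were above vehicle. It rose by 2.04 ± 0.21 after both (limma adjusted p = 2.76e-05) and by 1.77 ± 0.24 after panobinostat (adjusted p = 0.000747). It stayed a small part of subunit IV, at 1.02 ± 0.169% of Cox4i1 plus Cox4i2 after both against 0.224 ± 0.0478% in vehicle (SD, n = 3 each). All 10 pericyte and smooth muscle markers rose after panobinostat and after both, from sums of 79.4 to 143 TPM in vehicle to 603 and 877 TPM and to 911 to 1775 TPM, and their part in the Cox4i2 result was not tested. Fibroblast (8 of 8), endothelial (8 of 8) and macrophage (10 of 10) markers rose beside them in both comparisons. Neutrophil marker sums were 2.29 to 17.7 TPM in vehicle, 182 and 350 TPM after panobinostat and 424 to 602 TPM after both. No count of calls is read from the neutrophil list, since Cxcr2 in it reached 1 TPM only in tumours given panobinostat. Among all tested genes 25.5% rose after panobinostat and 35.9% after both.

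Cox6b2, the testis form of subunit VIb, was at 1.92, 1.56 and 2.78 TPM in vehicle, 6.91, 4.68 and 3.64 TPM after CBL0137, 7.59 and 9.76 TPM after panobinostat and 12.7, 11.3 and 13.1 TPM after both. The 4 groups did not overlap. It rose by 2.13 ± 0.23 after both (limma adjusted p = 2.97e-05), by 1.66 ± 0.25 after panobinostat (adjusted p = 0.00110) and by 0.96 ± 0.23 after CBL0137 (adjusted p = 0.0362). Germ cell markers were low, with sums of 0.99 to 3.73 TPM in vehicle, 3.73 and 4.80 TPM after panobinostat and 4.84 to 16.2 TPM after both, and the germ cell gene Dazl was at most 0.26 TPM in any library. Of the 5 germ cell markers only Ddx4, Sycp3 and Prm1 entered the test, and Ddx4 and Prm1 reached 1 TPM in no library outside the combination group, so no count of calls is read from them.

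After panobinostat alone, 9 of the 82 genes rose and 0 fell, or 11%, against 42.4% of all tested genes (25.5% higher and 16.9% lower). The median change was 0.17, beside 0.10 over all tested genes. Complex IV gave 5 of the 9 (Cox7a1, Cox8b, Cox4i2, Cox6b2 and Cox6a1), complex I 2 (Ndufa3 and Ndufa1), and complexes II and III 1 each (Sdhc and Uqcrh). The rises of Ndufa3, Ndufa1 and Cox6a1 were 0.67, 0.48 and 0.46 (limma adjusted p = 0.0339, 0.0444 and 0.0228). Under quantile normalization 17 genes rose, while all calls went from 3959 higher and 2613 lower to 2451 higher and 3960 lower.

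The panobinostat result rests on 2 tumours that disagreed. In replicate 3 the level was above that in replicate 1 for 80 of the 82 genes, with a median log2 difference of 0.53, whereas 5924 of 15497 tested genes were higher there and their median difference was -0.10. The replicate 3 library is the one with 13963 TPM of skeletal muscle markers, and the part of muscle in the difference was not tested. Without replicate 3 the median change of the 82 genes was -0.07, and 4 genes rose (Cox8b, Cox4i2, Cox6b2 and Cox6a1) while Atp5g1 and Ndufc2 fell, by 0.68 and 0.63 (limma adjusted p = 0.0156 and 0.0388). Without replicate 1 the median was 0.44 and 32 genes rose. Atp5g1 then changed by 0.48 in the other direction (adjusted p = 0.0367). Leaving out vehicle replicate 1 gave 5 called genes and vehicle replicate 3 gave 4. The shares of all tested genes called in these fits are not given here, so the counts are not read as particular to the 82 genes.

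**Figure D5:**
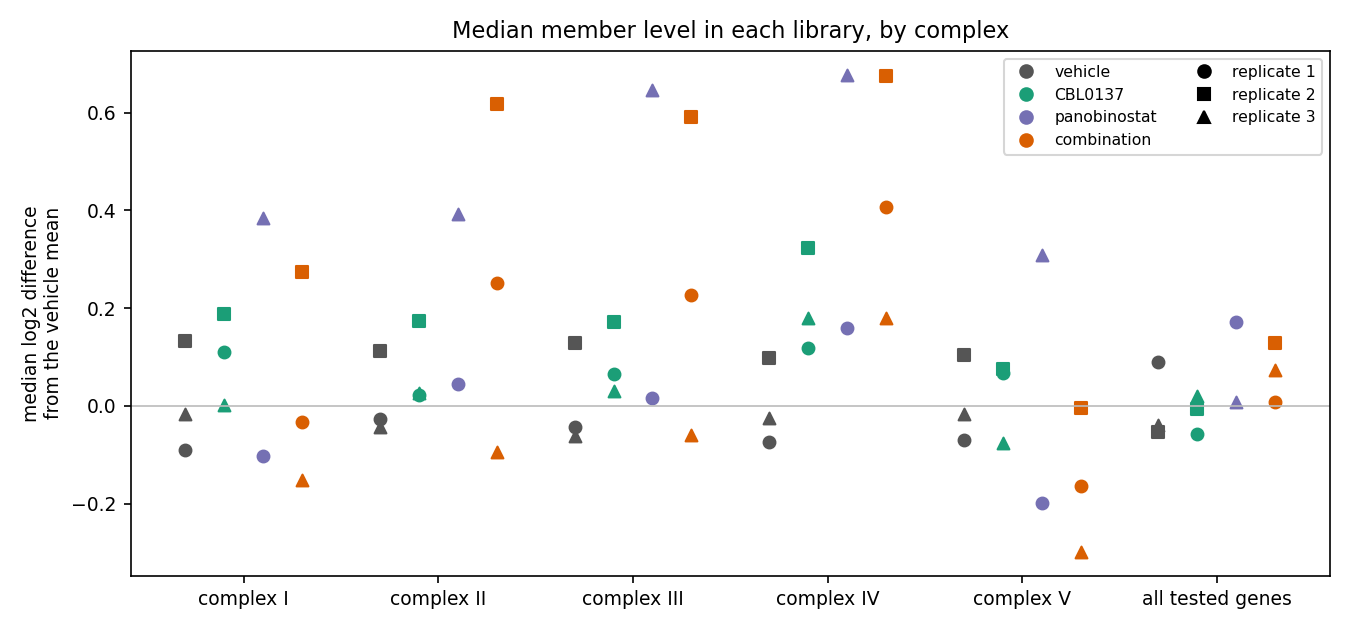
Median log2 difference from the vehicle mean (vertical axis) over the genes of each complex and over all tested genes, for each of the 11 tumours, with colour for treatment and shape for replicate. Panobinostat replicate 3 and combination replicate 2 lie highest in complexes I to IV, and panobinostat replicate 1 and the combination tumours lie at or below 0 in complex V.

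After CBL0137 alone 1 of the 82 rose and 0 fell, against 6.12% of all tested genes (4.99% higher and 1.13% lower), and this gene was Cox6b2. Without any 1 of the vehicle tumours, CBL0137 replicate 2 or combination replicate 1, 0 of the 82 passed the test. Without CBL0137 replicate 1, 1 gene was called, and it was not Cox6b2. Without combination replicate 2, 3 genes rose. The median change was 0.10 over the 82 genes and -0.01 over all tested genes, with 61 of the 82 above 0, beside 7529 of 15497. Of the 81 genes not called, 77 had a 95% interval within 2-fold either way and 63 within 1.5-fold. Among the core subunits, Atp5b was at 0.00 (95% interval from -0.32 to 0.32) and Cox5a at 0.00 (from -0.40 to 0.40).

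Against CBL0137, the combination showed 7 genes higher and 9 lower, against 56.9% of all tested genes called (33.2% higher and 23.7% lower). The higher ones were Cox7a1, Cox8b, Cox4i2, Cox6b2, Sdhc, Sdha and Cox6a1, with log2 differences from 2.56 to 0.36. The lower ones were led by Atp5g1 (-0.84, limma adjusted p = 0.0115), Atp5e (-0.70, adjusted p = 0.00256), Ndufc2 (-0.69), Atp5g2 (-0.58) and Cox7a2 (-0.47). Without CBL0137 replicate 1, 8 genes were called, 2 higher and 6 lower. Under quantile normalization the split was 6 higher and 23 lower, and under the rescaling 5 higher and 20 lower. The splits of all tested genes in these 2 settings are not given here for this comparison.

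Panobinostat and CBL0137 given singly differed in 4 genes, all higher after panobinostat, against 18.9% of all tested genes (12.1% higher and 6.81% lower). They were Cox7a1 (3.11), Cox8b (2.67), Cox4i2 (1.31) and the ATP synthase delta subunit Atp5d (0.49), with limma adjusted p of 0.0400, 0.0423, 0.0111 and 0.0269. Atp5d was at 218, 213 and 207 TPM after CBL0137 and 265 and 338 TPM after panobinostat. The count was 0 without panobinostat replicate 3, 9 without replicate 1, 1 without CBL0137 replicate 1 or 2, and 2 without any 1 of the vehicle tumours or combination replicate 1. The comparisons with vehicle and those with CBL0137 each share their control tumours, so their agreement is not independent.

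Between the combination and panobinostat 1 gene was called, against 10.5% of all tested genes (6.24% higher and 4.3% lower). Ndufv3 was lower by 0.44 ± 0.12 (SE) after the combination (limma adjusted p = 0.0420). It was not called without any 1 vehicle tumour, panobinostat tumour, CBL0137 replicate 1 or 2, or combination replicate 1. 6 other genes were called without panobinostat replicate 1 and 2 genes were called without CBL0137 replicate 3. Median differences over the 82 genes were -0.13 with both panobinostat tumours, 0.14 without replicate 3 and -0.41 without replicate 1.

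The interaction, the combination change minus the sum of the single changes, passed the test in 0 of the 82 genes, and in 0% of all tested genes. At an unadjusted p under 0.05 there were 4 of the 82 (Atp5e, Ndufv3, Ndufa7 and Atp5g2, named after their values were seen) and 1631 of 15497. limma with array weights called 0 of the 82 and 11 of all tested genes. The estimates were below 0 for 74 of the 82 genes, with a median of -0.25, beside 8018 of 15497 and -0.02 over all. Without panobinostat replicate 3 the median of the 82 was 0.05, and without replicate 1 it was -0.51, with 1 gene called. For Atp5g1 the interaction was -0.74 with a 95% interval from -1.52 to 0.04 (limma adjusted p = 0.491).

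Summed by complex, mean levels after both drugs were below vehicle for the ATP synthase, near it for complex I and above it for complexes II to IV. The complex V sum was 8089 ± 513 TPM in vehicle and 6955 ± 785 TPM after both (SD, n = 3 each), or 86.0% of vehicle, with 7651, 8653 and 7963 TPM against 6853, 7787 and 6226 TPM. The complex IV sum was 5161 ± 376 TPM and 6550 ± 1107 TPM, or 127% of vehicle, with 4878, 5587 and 5018 TPM against 6462, 7697 and 5489 TPM. Both pairs of groups overlapped in 1 tumour of each. Complexes I, II and III were at 102%, 118% and 121% of vehicle, each with overlapping groups. The complex I sums were 6511, 7563 and 6946 TPM in vehicle against 6948, 8404 and 6116 TPM after both. After CBL0137 the 5 sums were at 102 to 113% of vehicle, and after panobinostat at 102 to 138%, with the replicate 3 tumour above the replicate 1 tumour in each. These sums are of the TPM as deposited and are described without a test.

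Genes that build or feed the respiratory chain were listed beside the subunits. Of 47 assembly factors, 13 rose and 14 fell after both drugs (median -0.13), 3 rose and 9 fell after panobinostat (median -0.12), and 0 rose and 1 fell after CBL0137. Among all tested genes, 35.9% rose and 30.1% fell after both drugs, 25.5% and 16.9% after panobinostat, and 4.99% and 1.13% after CBL0137. The falls of assembly factors after both drugs and after panobinostat were close to these shares. Coa5, a factor for complex IV, rose by 1.72 ± 0.20 after both drugs (limma adjusted p = 4.33e-05). Ndufaf4, a complex I factor and a known MYC target, fell by 1.34 ± 0.12 (adjusted p = 1.56e-05), and Coa7, a complex IV factor, by 1.04 ± 0.11 (adjusted p = 3.53e-05).

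Among 20 carriers and electron donors, 4 rose and 6 fell after both drugs. Both subunits of the electron transfer flavoprotein, which brings electrons from fatty acid oxidation, rose, Etfb by 1.59 ± 0.17 and Etfa by 1.43 ± 0.23 (limma adjusted p = 3.11e-05 and 0.000363). Pdss1, which makes the side chain of ubiquinone, fell by 1.45 ± 0.17 (adjusted p = 5.59e-05). Of 24 regulators of mitochondrial biogenesis, 4 rose and 8 fell after both (median -0.23). The mitochondrial helicase Peo1, the transcription factor Nrf1 and the mitochondrial DNA-packaging factor Tfam fell by 0.97, 0.92 and 0.89 (adjusted p = 0.000160, 0.000389 and 3.68e-05). After panobinostat the coactivator Ppargc1a, which is highly active in brown fat and muscle, rose by 1.22 ± 0.23 (adjusted p = 0.00267). These counts stand beside 35.9% of all tested genes higher and 30.1% lower after both drugs.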

How the data were processed

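RNA was measured in 11 bulk tumours, each from a separate mouse, with 1 library per tumour. The authors deposited TPM per gene, and per the submitters' processing notes STAR, SAMtools and RSEM with the mm10 build were used, while versions and annotation release are not given in the sources used here. TPM sum to 1000000 per library and keep no depth, so counting error is unknown, and a large transcript in a library lowers all others. 27 rows carry symbols changed into dates and were not matched to lists. Panobinostat replicate 2 is not analysed here.

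Genes at 1 TPM or more in at least 2 libraries (15497) were fitted together on log2(TPM + 1) in 1 model over the 4 groups with limma 3.58.1 (trend) in R 4.3.3, and p-values were Benjamini-Hochberg adjusted over all of them at 0.05. Fold changes on this scale understate the change of low genes. Intervals are 95%. The fits were tested on simulated data with 200 changed genes. Against vehicle, 4.48% of log2 changes of 0.5 and 38.8 to 52.2% of those of 1 were recovered. For the interaction 1.49% and 16.4% were recovered. At most 0.0458% of unchanged genes were called. Sums, shares, motifs and plots used Python 3.11.15, numpy 2.4.6, pandas 2.3.3 and matplotlib 3.10.9. The members and lists were chosen with earlier results of these data known. Named genes were the 8 furthest rises and falls among called members against vehicle (5 elsewhere), the extremes and the 2 highest of each complex, core subunits and isoform pairs. Alternatives covered the pseudocount, filter, scaling, replicate block, trend, array weights, the groups fitted and left-out libraries. RefSeq matched all 82 genes by transcript.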

Additional observations from a re-analysis of the deposited data

How the results depend on the processing

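Of the 24 named genes called after the combination, 12 kept their call in all alternatives run (Cox8b, Cox7a1, Cox6b2, Cox4i2, Ndufa3, Sdhc, Ndufa1, Cox6a1, Atp5g1, Ndufc2, Atp5g2 and Ndufv3), against 6 of 10 in combination against CBL0137, 1 of 9 after panobinostat (Cox4i2), 0 of 1 after CBL0137, 0 of 4 in panobinostat against CBL0137 and 0 of 1 in combination against panobinostat. The number of the 82 genes called, when each library was left out in turn, ran from 0 to 3 for CBL0137 (1 with all libraries), 4 to 32 for panobinostat (9), 14 to 33 for the combination (25), 8 to 21 for combination against CBL0137 (16), 0 to 6 for combination against panobinostat (1), 0 to 9 for panobinostat against CBL0137 (4) and 0 to 1 for the interaction (0). For CBL0137 the count was 2 with a pseudocount of 0.1 or a filter of 5 TPM, 0 with a pseudocount of 5 or no filter, 3 with rescaling or only the groups compared, and 13 with array weights. For panobinostat it was 4 with median-of-ratios scaling, 17 with quantile normalization, 16 with rescaling and 24 with array weights. For the combination it was 42 with array weights. For combination against CBL0137 it was 29, 25 and 28 with quantile normalization, rescaling and array weights. For combination against panobinostat it was 16, 5 and 3 with these, and 0 with no filter, median-of-ratios scaling, no trend or only the groups compared. For panobinostat against CBL0137 it was 2 with no filter and 0 with only the groups compared. Without panobinostat replicate 3 and combination replicate 2 the counts were 2 for CBL0137, 27 for combination against CBL0137, and 0 for combination against panobinostat and panobinostat against CBL0137. Without the 3 libraries highest in muscle markers, chosen after seeing the data, they were 0, 8, 0 and 0, and 3 for panobinostat. The replicate numbers did not pair the samples (15 same-numbered pairs, r from -0.26 to 0.19, 2 over 0.1), and with the replicate block the counts were 0 for CBL0137, 14 for panobinostat and 0 for combination against panobinostat. The Atp5g1 change after panobinostat was -0.10 with both panobinostat tumours, -0.68 without panobinostat replicate 3 and to 0.48 without replicate 1. The cause of these changes was not tested. With 2 or 3 tumours per group and unknown depth, many small changes could not be resolved, those of low genes among them. The median SE over the 82 genes was 0.16 for the combination against vehicle and 0.25 for the interaction, on the log2 scale. The counts of called genes above are given without the share of all tested genes called in the same alternative. They are not read as particular to the 82 genes.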

Other observations

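Mitochondrial ribosome genes, which make the proteins that translate the mitochondrially encoded subunits, fell widely in the tumours given panobinostat. Of 77 such genes, 50 fell and 5 rose after both drugs (median log2 change -0.44), 43 fell and 2 rose after panobinostat (median -0.44), and 1 fell and 0 rose after CBL0137 (Mrps30, by 0.37, limma adjusted p = 0.0455). After both drugs, 30.1% of all tested genes fell and 35.9% rose, with a median of 0.08, and after panobinostat 16.9% fell and 25.5% rose. Mrpl12, a protein of the large mitochondrial ribosomal subunit, fell by 1.14 ± 0.17 (SE, limma adjusted p = 0.000260), and Mrps22 and Mrps33, of the small subunit, by 1.04 and 0.99 (adjusted p = 3.16e-05 and 2.74e-05).

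Genes that supply the chain with fuel were listed as well, beside 35.9% of all tested genes higher and 30.1% lower after both drugs. Of 24 genes of the citric acid cycle and pyruvate dehydrogenase, 12 rose and 1 fell after both drugs (median 0.41), 6 rose and 0 fell after panobinostat, a share close to the 25.5% of all tested genes that rose, and 0 passed the test after CBL0137. The 3 largest rises after both were in kinases that inactivate pyruvate dehydrogenase, with Pdk4 at 1.97, Pdk2 at 1.68 and Pdk3 at 1.36 (limma adjusted p = 0.00601, 0.00192 and 2.50e-05). Of 20 glycolysis genes, 11 rose and 0 fell after both (median 0.43), 5 rose and 0 fell after panobinostat, again close to 25.5%, and 0 passed the test after CBL0137. The aldolase Aldoc rose by 1.62, the lactate dehydrogenase subunit Ldhb by 1.44 and the neuronal enolase Eno2 by 1.07 (adjusted p = 5.71e-05, 0.0159 and 0.00111).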
